A study of Rattus norvegicus with 18 samples.

Results

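The data follow 10 genes of glycolysis and lactate metabolism in cultured rat astrocytes exposed to inflammatory signals. They were chosen by symbol: the hexokinases Hk1 and Hk2, the platelet-type phosphofructokinase Pfkp, the regulatory enzyme Pfkfb3, the aldolases Aldoa and Aldoc, the phosphoglycerate kinase Pgk1, the pyruvate kinase Pkm, and the lactate dehydrogenase subunits Ldha and Ldhb. All 10 had a row among the 10431 named genes of the deposited table. The cells were primary astrocytes immunopanned from postnatal day 5 rat brain and kept for 24 h in 1 of 6 conditions, with 3 libraries each. The conditions were interferon beta with TIC (IFNb + TIC), interferon gamma with TIC (IFNg + TIC), TIC alone, interferon beta alone (IFNb), interferon gamma alone (IFNg), and the PBS control. TIC is a mixture of TNFa at 30 ng/ml, IL1a at 3 ng/ml and C1q, a set of factors known from microglia. The labels give interferon gamma at 3 ng/ml, interferon beta at 1000 U/ml and C1q at 40 ng/ml, whereas the legend in the deposited workbook gives interferon gamma at 1000 U/ml, interferon beta at 3 ng/ml and C1q at 400.0 ng/ml. Nothing in the labels ties the libraries of a condition to different animals or cultures, and the p-values therefore reflect the spread from library to library, which may be technical.

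Glycolysis splits glucose into pyruvate, and lactate dehydrogenase interconverts pyruvate and lactate. Astrocytes are known for taking up glucose at the capillary, storing it as glycogen and releasing lactate, and they carry isoforms of several of these enzymes that neurons use less. The A subunit of lactate dehydrogenase is classically tied to making lactate from pyruvate, and the B subunit to the reverse reaction.

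Levels are FPKM, fragments scaled by transcript length and library total, as the authors deposited them. The depth of each library is unknown, and deposited FPKM summed to between 505768 and 542909 per library. All 10 genes passed the filter of at least 1 FPKM in at least 3 libraries, as did 10296 genes in all. Changes are on the log2(FPKM + 1) scale, which understates the change of low genes, from limma fitted across all genes and all 18 libraries. A gene was called at a Benjamini-Hochberg adjusted p under 0.05, two-sided. The 9 astrocyte markers, which include Gfap, Slc1a3 and Aldh1l1, summed to 1119 to 1244 FPKM in IFNb + TIC, 763 to 788 FPKM in IFNg + TIC, 1197 to 1234 FPKM in TIC, 1595 to 1656 FPKM in IFNb, 2105 to 2196 FPKM in IFNg and 2375 to 2603 FPKM in control libraries. The 4 markers of oligodendrocyte precursors found in the table, of 5 listed, summed to 233 to 286, 128 to 136, 256 to 284, 897 to 1067, 876 to 1017 and 875 to 1116 FPKM in the same order of conditions. The 3 microglial markers found in the table, of 10 listed, summed to at most 8.76 FPKM in any library. The 4 oligodendrocyte markers found, of 5 listed, summed to 154 to 185, 80.04 to 81.04, 66.9 to 78.2, 330 to 390, 184 to 219 and 137 to 173 FPKM in that order of conditions. The 4 neuronal markers found, of 7 listed, summed to 15.8 to 18.4, 41.9 to 49.7, 55.0 to 62.9, 22.0 to 25.2, 26.7 to 35.8 and 40.6 to 50.2 FPKM. The 4 pericyte and fibroblast markers found, of 6 listed, summed to 50.5 to 58.9, 77.9 to 93.9, 27.8 to 32.4, 70.0 to 96.2, 65.5 to 93.7 and 32.2 to 47.8 FPKM. The 1 endothelial marker found, of 5 listed, was at 1.55 to 2.34, 4.27 to 4.46, 6.96 to 8.17, 0 to 0.158, 0 to 0.248 and 0.111 to 0.163 FPKM, and the 1 ependymal marker found, of 3 listed, was at most 7.20 FPKM. Astrocyte and precursor sums were lower wherever TIC was present, the oligodendrocyte sum was highest in IFNb, the neuronal sum was highest in TIC and lowest in IFNb + TIC, and the pericyte sum was higher in every condition with an interferon than in control. The part of these markers in the gene changes that follow was not tested. In bulk RNA, fewer cells of a type and less RNA per cell cannot be told apart.

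**Figure D1:**
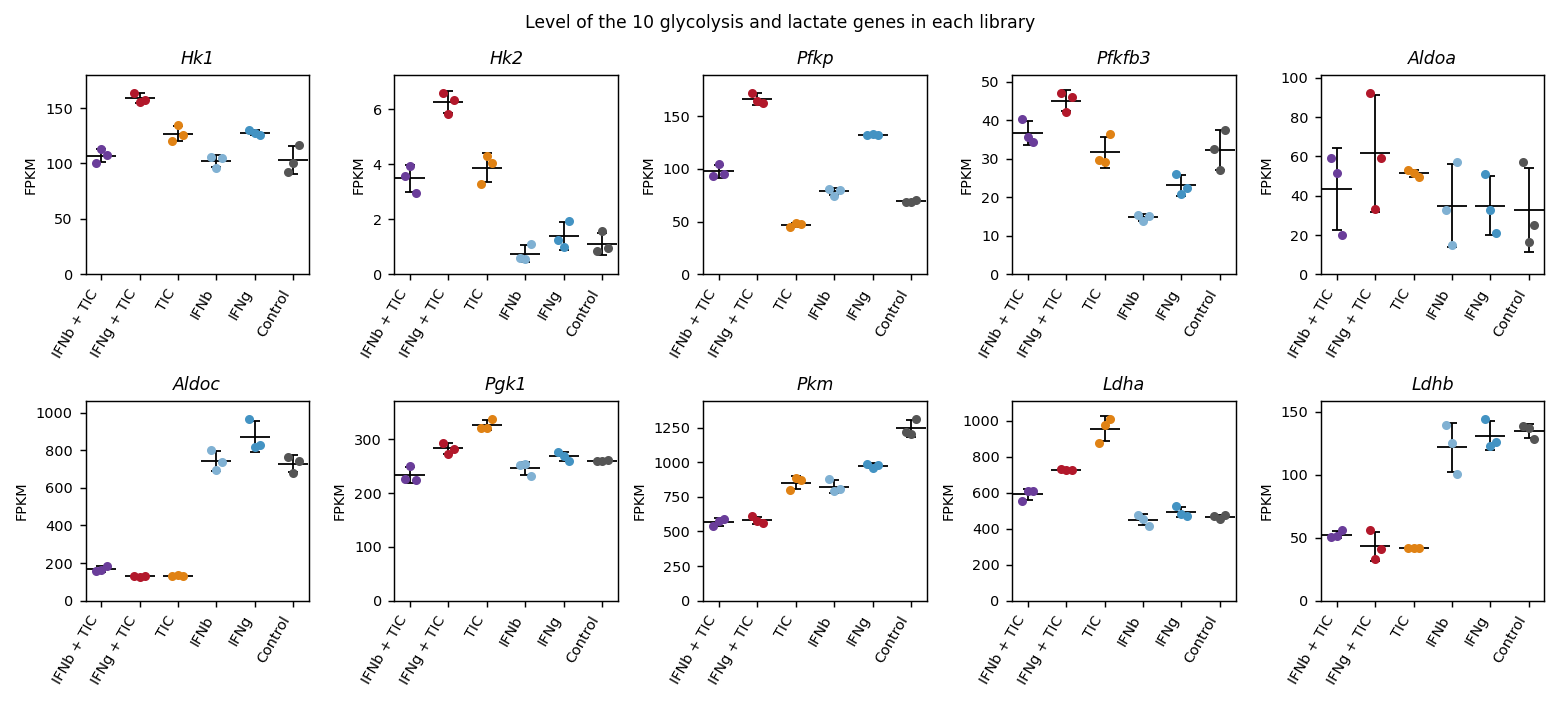
FPKM of the 10 genes in each library (coloured points, 3 per condition), with black bars for the mean and SD; every vertical axis starts at 0. Aldoc and Ldhb sit low in the 3 conditions with TIC, Ldha sits high in them, and Aldoa scatters widely within most conditions.

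With TIC, the lactate dehydrogenase subunits moved in opposite directions, Ldha up and Ldhb down, while both hexokinases rose. Relative to control, 4 of the 10 genes rose (Ldha, Hk2, Pgk1 and Hk1), beside 25.3% of all genes tested, and 4 fell (Aldoc, Ldhb, Pfkp and Pkm), beside 31.2%. The Aldoc change, with a mean level 0.183 times that of control, ranked 88 from the lowest of 10296 genes, and the Ldha change, 2.05 times control, ranked 654 from the highest. The median change of the 10 genes was 0.14, beside -0.04 over all genes, and it joins 4 rises and 4 falls. Pfkfb3 and Aldoa were not called with TIC.

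**Figure D2:**
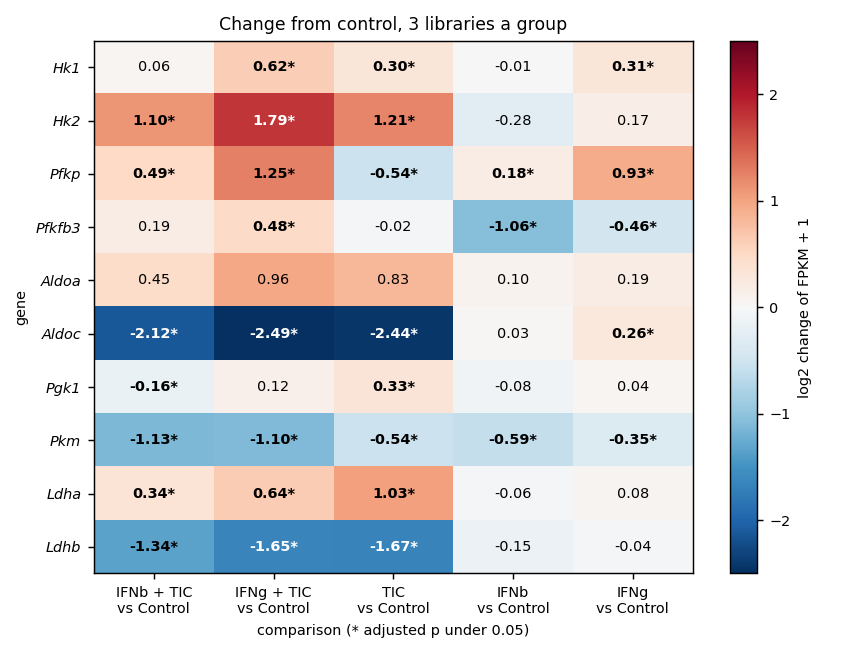
Change of each gene from control on the log2(FPKM + 1) scale, limma, with 3 libraries per condition; red is higher and blue lower than control, and a star marks an adjusted p under 0.05. Aldoc and Ldhb are below -1.3 in the 3 columns with TIC and between -0.15 and 0.26 in the columns of interferon alone.

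Hexokinase traps glucose in the cell as glucose 6-phosphate. Hk1, the constitutive brain form, was measured at 101, 113 and 108 FPKM in IFNb + TIC, 164, 156 and 157 FPKM in IFNg + TIC, 121, 134 and 126 FPKM in TIC, 106, 96.1 and 105 FPKM in IFNb, 129.8, 128 and 125 FPKM in IFNg and 92.1, 101 and 117 FPKM in control libraries. The IFNg + TIC libraries were above all others, and those of TIC and of IFNg lay above every control library, while IFNb + TIC and IFNb overlapped control. Hk1 rose with IFNg + TIC by 0.62 (adjusted p = 1.42e-06), with TIC by 0.30 (adjusted p = 0.00279) and with IFNg by 0.31 (adjusted p = 0.00998). The IFNg call was lost without control replicate 1 (0.23, adjusted p = 0.0567) and when only IFNg and control libraries were fitted (adjusted p = 0.0728). Hk2, the inducible form of muscle, fat and tumour cells, was a minor transcript throughout. It was measured at 3.55, 3.94 and 2.96 FPKM in IFNb + TIC, 6.59, 5.83 and 6.33 FPKM in IFNg + TIC, 3.30, 4.29 and 4.03 FPKM in TIC, 0.582, 0.546 and 1.10 FPKM in IFNb, 1.24, 0.994 and 1.95 FPKM in IFNg and 0.832, 1.56 and 0.949 FPKM in control libraries. Every library with TIC was above every library without it. Mean Hk2 with TIC was 3.48 times control (log2 change 1.21, SE 0.17, adjusted p = 9.64e-06), and with IFNg + TIC it was 5.61 times control (log2 change 1.79, adjusted p = 6.08e-08). Even so, Hk2 made up 3.78% of the summed FPKM of Hk1 and Hk2 in IFNg + TIC, 2.96% in TIC and 1.08% in control libraries.

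Phosphofructokinase commits sugar to glycolysis, and its 3 isoforms did not move together. Pfkp was measured at 93.5, 105 and 95.1 FPKM in IFNb + TIC, 172, 165 and 162 FPKM in IFNg + TIC, 44.9, 48.4 and 48.1 FPKM in TIC, 81.4, 74.5 and 80.2 FPKM in IFNb, 132, 133 and 132 FPKM in IFNg and 68.3, 68.4 and 70.8 FPKM in control libraries. No 2 conditions overlapped for this gene. TIC alone was the lowest and IFNg + TIC the highest. Pfkp fell with TIC by 0.54 (SE 0.06, adjusted p = 3.93e-07) and rose with IFNg by 0.93 (SE 0.06, adjusted p = 1.43e-09). It rose in IFNg + TIC over TIC by 1.80 (adjusted p = 9.08e-14) and in IFNb + TIC over TIC by 1.04 (adjusted p = 1.76e-10). The rise with IFNb alone was 0.18 (adjusted p = 0.0203), and it was not called without control replicate 1 (adjusted p = 0.0545), control replicate 2 (adjusted p = 0.0527), IFNb replicate 1 (adjusted p = 0.069) or IFNb replicate 3 (adjusted p = 0.0655). It was also lost with only the IFNb and control libraries fitted (adjusted p = 0.0993) and with libraries rescaled to a common total (0.13, adjusted p = 0.0627), so in 6 of 12 alternatives.

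The muscle-type isoform Pfkm and the liver-type isoform Pfkl, both from the list of other glycolytic enzymes, moved in opposite directions with TIC. Pfkm averaged 24.1 ± 1.92 FPKM in IFNb + TIC, 19.1 ± 1.50 FPKM in IFNg + TIC, 21.5 ± 0.310 FPKM in TIC, 69.8 ± 5.95 FPKM in IFNb, 92.3 ± 6.18 FPKM in IFNg and 82.3 ± 6.55 FPKM in control libraries (SD, n = 3 each). Pfkl averaged 5.43 ± 1.57 FPKM in IFNb + TIC, 9.89 ± 0.779 FPKM in IFNg + TIC, 12.2 ± 1.25 FPKM in TIC, 2.26 ± 0.430 FPKM in IFNb, 2.89 ± 0.713 FPKM in IFNg and 2.50 ± 0.290 FPKM in control libraries (SD, n = 3 each). With TIC, Pfkm fell by 1.88 (adjusted p = 4.95e-12) and Pfkl rose by 1.91 (adjusted p = 3.14e-08). The isoforms' shares of summed phosphofructokinase FPKM differed between conditions. Pfkp held 76.8% ± 1.59 in IFNb + TIC, 85.2% ± 0.149 in IFNg + TIC, 58.3% ± 0.322 in TIC, 52.2% ± 1.47 in IFNb, 58.2% ± 1.79 in IFNg and 45.0% ± 1.56 in control libraries (SD, n = 3 each). Pfkm held 53.4% in control libraries, more than Pfkp there, and 9.77% in IFNg + TIC. For the Pfkp share, each of the other 5 conditions against control gave an exact permutation p of 0.1, two-sided, which is the smallest that 3 against 3 libraries allow. The summed FPKM of the 3 isoforms was 127 ± 7.37 in IFNb + TIC, 195 ± 6.15 in IFNg + TIC, 80.8 ± 3.41 in TIC, 151 ± 9.31 in IFNb, 228 ± 6.32 in IFNg and 154 ± 7.56 in control libraries (SD, n = 3 each).

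**Figure D3:**
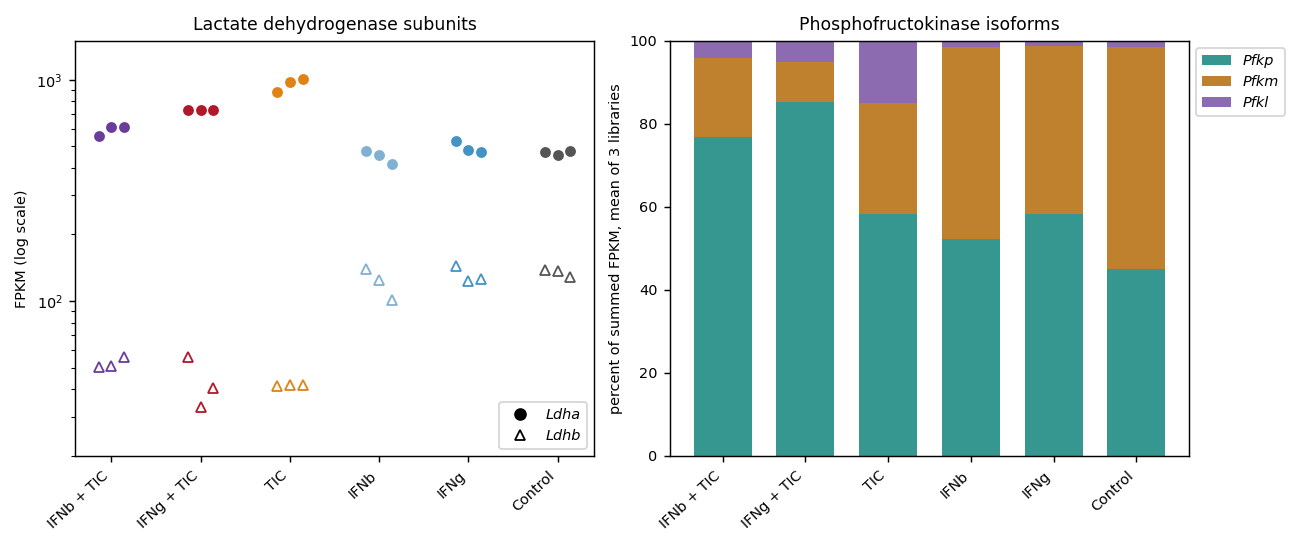
Left, FPKM of Ldha (filled circles) and Ldhb (open triangles) in each library on a log axis; right, mean percent of summed phosphofructokinase FPKM held by Pfkp, Pfkm and Pfkl over 3 libraries per condition. Ldha stands above Ldhb in all 18 libraries, with the widest gap in TIC, and Pfkp takes 85.2% of the phosphofructokinase total in IFNg + TIC and 45.0% in control.

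Pfkfb3 makes fructose 2,6-bisphosphate, the strongest known activator of phosphofructokinase. It was measured at 40.2, 35.7 and 34.3 FPKM in IFNb + TIC, 47.1, 42.0 and 46.0 FPKM in IFNg + TIC, 29.6, 29.1 and 36.4 FPKM in TIC, 15.5, 13.8 and 15.2 FPKM in IFNb, 26.0, 20.8 and 22.3 FPKM in IFNg and 32.5, 27.0 and 37.4 FPKM in control libraries. The interferon-only libraries were below every control library, those of TIC fell within the control range, and those of IFNg + TIC were above all others. Pfkfb3 fell with IFNb by 1.06 (SE 0.12, adjusted p = 1.83e-06) and with IFNg by 0.46 (adjusted p = 0.0110), and rose with IFNg + TIC by 0.48 (adjusted p = 0.00163). The IFNg call was lost without control replicate 3 (-0.35, adjusted p = 0.0580), without IFNg replicate 2 (-0.40, adjusted p = 0.0557) and when only IFNg and control libraries were fitted (adjusted p = 0.0652). With TIC alone its change was -0.02, with a 95% interval from -0.27 to 0.22. Of the other 3 tested enzymes that make or remove fructose 2,6-bisphosphate, 3 rose and 0 fell with TIC, beside 25.3% and 31.2% of all genes, Pfkfb4 by 0.70 (adjusted p = 0.000404) and Tigar, which breaks the molecule down, by 0.46 (adjusted p = 0.00484).

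Aldolase cuts fructose 1,6-bisphosphate into triose phosphates, and Aldoc, the brain form also known as zebrin II, is enriched in astrocytes. Aldoc was measured at 156, 161 and 186 FPKM in IFNb + TIC, 129, 126 and 131 FPKM in IFNg + TIC, 132, 134 and 133 FPKM in TIC, 800.1, 694 and 739 FPKM in IFNb, 966, 818 and 830.3 FPKM in IFNg and 765, 677 and 743 FPKM in control libraries. All 9 libraries with TIC were at or below 186 FPKM and all 9 without it at or above 677 FPKM. Aldoc fell by 2.12 with IFNb + TIC (adjusted p = 2.39e-13), by 2.49 with IFNg + TIC (adjusted p = 2.28e-14) and by 2.44 with TIC (SE 0.08, adjusted p = 7.92e-14). It was 0.32 higher in IFNb + TIC than in TIC (adjusted p = 0.0033). Aldoa, the muscle form found in most tissues, was the most variable of the 10 genes. It was measured at 59.2, 51.6 and 20.0 FPKM in IFNb + TIC, 92.4, 33.1 and 59.4 FPKM in IFNg + TIC, 53.3, 51.6 and 49.7 FPKM in TIC, 33.0, 15.0 and 57.1 FPKM in IFNb, 51.2, 33.0 and 21.0 FPKM in IFNg and 56.9, 16.3 and 24.9 FPKM in control libraries. All conditions overlapped control, and the SD reached 65.5% of the mean. Its change with TIC was 0.83, with a 95% interval from -0.26 to 1.91 (adjusted p = 0.182), and without control replicate 1 it was 1.31 (adjusted p = 0.0464). With IFNg + TIC it was 0.96 (adjusted p = 0.112), and without control replicate 1 it was 1.45 (adjusted p = 0.0258). Summed aldolase FPKM averaged 211 in IFNb + TIC, 191 in IFNg + TIC, 185 in TIC, 779 in IFNb, 906 in IFNg and 761 in control libraries.

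Pgk1 makes the first ATP of the pathway. It was measured at 226, 251 and 225 FPKM in IFNb + TIC, 293, 273 and 283 FPKM in IFNg + TIC, 321, 322 and 338 FPKM in TIC, 252, 254 and 232 FPKM in IFNb, 277, 268 and 260.0 FPKM in IFNg and 259, 260.2 and 262 FPKM in control libraries. The TIC libraries were above all others and those of IFNb + TIC below every control library. Pgk1 rose with TIC by 0.33 (adjusted p = 0.000103). Its change with IFNb + TIC was -0.16 (adjusted p = 0.0232), but the direction turned to 0.07 (adjusted p = 0.266) when libraries were scaled by median ratios. That call was also lost without control replicate 3 (adjusted p = 0.0523), without IFNb + TIC replicate 1 (adjusted p = 0.0803) or replicate 3 (adjusted p = 0.0853), and when only these groups were fitted (adjusted p = 0.107).

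Pkm makes pyruvate and the second ATP, and gene-level values do not separate its M1 and M2 splice forms. It was measured at 539, 574 and 591 FPKM in IFNb + TIC, 610.4, 575 and 561 FPKM in IFNg + TIC, 801, 888 and 871 FPKM in TIC, 877, 791 and 805 FPKM in IFNb, 991, 957 and 982 FPKM in IFNg and 1217, 1205 and 1313 FPKM in control libraries. Control libraries were the highest, and those of both combinations were the lowest and overlapped each other. Pkm fell by 1.13 with IFNb + TIC (adjusted p = 5.14e-11), by 1.10 with IFNg + TIC (adjusted p = 6.26e-11), by 0.54 with TIC (adjusted p = 8.81e-07), by 0.59 with IFNb (adjusted p = 1.12e-06) and by 0.35 with IFNg (adjusted p = 0.000756). Pkm fell in all 5 comparisons with control, which share the control libraries. Aldoa, Pgk1, Pkm and Ldha have near-identical processed copies in mammalian genomes, and the sources used here do not say how the authors' counting treated such reads, so their levels carry that uncertainty.

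Ldha and Ldhb are the subunits of the lactate dehydrogenase tetramer. Ldha was measured at 554, 611 and 609.6 FPKM in IFNb + TIC, 733, 728 and 727 FPKM in IFNg + TIC, 877, 979.9 and 1011 FPKM in TIC, 479, 455 and 417 FPKM in IFNb, 527, 480.1 and 473 FPKM in IFNg and 470.3, 456 and 475 FPKM in control libraries. The 3 conditions with TIC did not overlap one another or any condition without it. Ldha rose with IFNb + TIC by 0.34 (adjusted p = 0.000344), with IFNg + TIC by 0.64 (adjusted p = 2.44e-07) and with TIC by 1.03 (SE 0.07, adjusted p = 7.96e-10). Ldhb was measured at 50.2, 51.0 and 55.8 FPKM in IFNb + TIC, 55.8, 33.1 and 40.7 FPKM in IFNg + TIC, 41.4, 41.9 and 41.7 FPKM in TIC, 139, 125 and 101 FPKM in IFNb, 144, 123 and 126 FPKM in IFNg and 139, 137 and 128 FPKM in control libraries. All 9 libraries with TIC were at or below 55.8 FPKM and all 9 without it at or above 101 FPKM. Ldhb fell by 1.34 with IFNb + TIC (adjusted p = 2.23e-07), by 1.65 with IFNg + TIC (adjusted p = 1.35e-08) and by 1.67 with TIC (SE 0.14, adjusted p = 1.75e-08). Ldha held 91.9% ± 0.372 of the summed FPKM of both subunits in IFNb + TIC, 94.4% ± 1.38 in IFNg + TIC, 95.8% ± 0.286 in TIC, 78.8% ± 1.56 in IFNb, 79.0% ± 0.559 in IFNg and 77.7% ± 0.996 in control libraries (SD, n = 3 each). The exact permutation p against control, two-sided, was 0.1 in each condition with TIC, the smallest possible, 0.4 in IFNb and 0.2 in IFNg. Neither subunit was called with either interferon alone.

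Promoter sequences are shown for Ldha and Ldhb, the paired subunits that moved in opposite directions with TIC. Aldoc is shown as the gene with the largest fall, and Pfkp as the gene that separated all conditions. Each window runs 5′ to 3′ on the gene's own strand, across the start of the gene in RefSeq, build GRCr8. Capitals mark the core of the hypoxia response element, ACGTG or GCGTG on either strand. The windows are Ldha at chr1:106507842-106508141 on the plus strand, Ldhb at chr4:177177359-177177658 on the minus strand, Aldoc at chr10:63715294-63715593 on the plus strand and Pfkp at chr17:68639563-68639862 on the plus strand.
Ldha: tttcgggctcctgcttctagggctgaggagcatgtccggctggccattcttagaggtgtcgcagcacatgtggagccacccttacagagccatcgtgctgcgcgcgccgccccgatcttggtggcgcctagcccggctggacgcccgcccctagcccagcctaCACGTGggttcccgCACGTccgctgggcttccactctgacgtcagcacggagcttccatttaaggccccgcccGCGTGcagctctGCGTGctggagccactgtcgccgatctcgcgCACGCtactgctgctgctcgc
Ldhb: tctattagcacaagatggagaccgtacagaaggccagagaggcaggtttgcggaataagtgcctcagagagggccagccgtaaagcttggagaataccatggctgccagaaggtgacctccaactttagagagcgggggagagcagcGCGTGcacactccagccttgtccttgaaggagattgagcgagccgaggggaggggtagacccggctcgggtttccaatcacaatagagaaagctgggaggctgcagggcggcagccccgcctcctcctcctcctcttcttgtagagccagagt
Aldoc: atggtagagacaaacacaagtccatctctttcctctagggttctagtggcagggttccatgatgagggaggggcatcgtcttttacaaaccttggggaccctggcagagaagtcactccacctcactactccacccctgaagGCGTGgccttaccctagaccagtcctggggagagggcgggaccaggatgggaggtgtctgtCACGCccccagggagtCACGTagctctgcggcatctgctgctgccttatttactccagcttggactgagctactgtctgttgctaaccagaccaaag
Pfkp: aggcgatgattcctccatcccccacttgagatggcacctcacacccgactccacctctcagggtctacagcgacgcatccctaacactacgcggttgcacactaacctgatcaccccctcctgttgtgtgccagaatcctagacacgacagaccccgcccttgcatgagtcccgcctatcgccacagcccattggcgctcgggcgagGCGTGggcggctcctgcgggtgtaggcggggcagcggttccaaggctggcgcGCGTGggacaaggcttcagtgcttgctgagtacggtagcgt
The core was found at 6 positions in the Ldha window, 1 in Ldhb, 3 in Aldoc and 2 in Pfkp, where CACGTG counts once on each strand. Among the sequences used here, no window was found for Pgk1. The other 9 genes have 12 windows, of which 7 held the core, beside 41.6% of all 33469 promoter windows of this length. The windows of Hk2 and Pkm, not printed, held 0 matches of the core. The E-box CACGTG, which overlaps the core, was in 2 of the 12 windows, those of Ldha and Pfkfb3, and in 6.42% of all windows. The letters TTCNNNGAA (gamma-activated site), those of GAAA, any 2 bases and GAAA (core of the interferon-stimulated response element), and GGG, any 2 bases and TTTCC (kappaB), searched on both strands, were in 0 of the 12 windows and in 8.87%, 3.92% and 1.53% of all windows. A match is a description of the sequence and not a binding site.

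Interferon and TIC did not add up on the log2 scale for 4 of the 10 genes. The interaction is the change with interferon on top of TIC minus the change with interferon alone. For IFNb by TIC, 2 genes were called above the sum, beside 7.16% of all genes, and 2 below it, beside 8.66%. For IFNg by TIC, 2 genes were above it, beside 3.64% of all genes, and 2 below it, beside 10.2% Among all calls for IFNg by TIC, 40.0% were above the sum under median-ratio scaling and 26.3% without it. Pfkp gave 0.85 with IFNb (adjusted p = 2.72e-06) and 0.87 with IFNg (SE 0.08, adjusted p = 2.44e-06). Pfkfb3 gave 1.27 with IFNb (adjusted p = 5.18e-05) and 0.96 with IFNg (adjusted p = 0.000718). Ldha gave -0.63 with IFNb (adjusted p = 0.00025) and -0.46 with IFNg (adjusted p = 0.00352). Pgk1 gave -0.40 with IFNb (adjusted p = 0.00267) and -0.25 with IFNg (adjusted p = 0.0472), and the second was not called under most alternatives. Pfkp and Pfkfb3 were thus above the sum, and Ldha and Pgk1 below it. The 3 other tested enzymes of fructose 2,6-bisphosphate had a median interaction of -0.58 with IFNb and 0.07 with IFNg, with 0 called. From TIC to IFNb + TIC, mean Pfkl went from 12.2 to 5.43 FPKM and mean Pfkm from 21.5 to 24.1 FPKM. From control to IFNb, they went from 2.50 to 2.26 FPKM and from 82.3 to 69.8 FPKM. A pattern by step of the pathway was not tested.

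**Figure D4:**
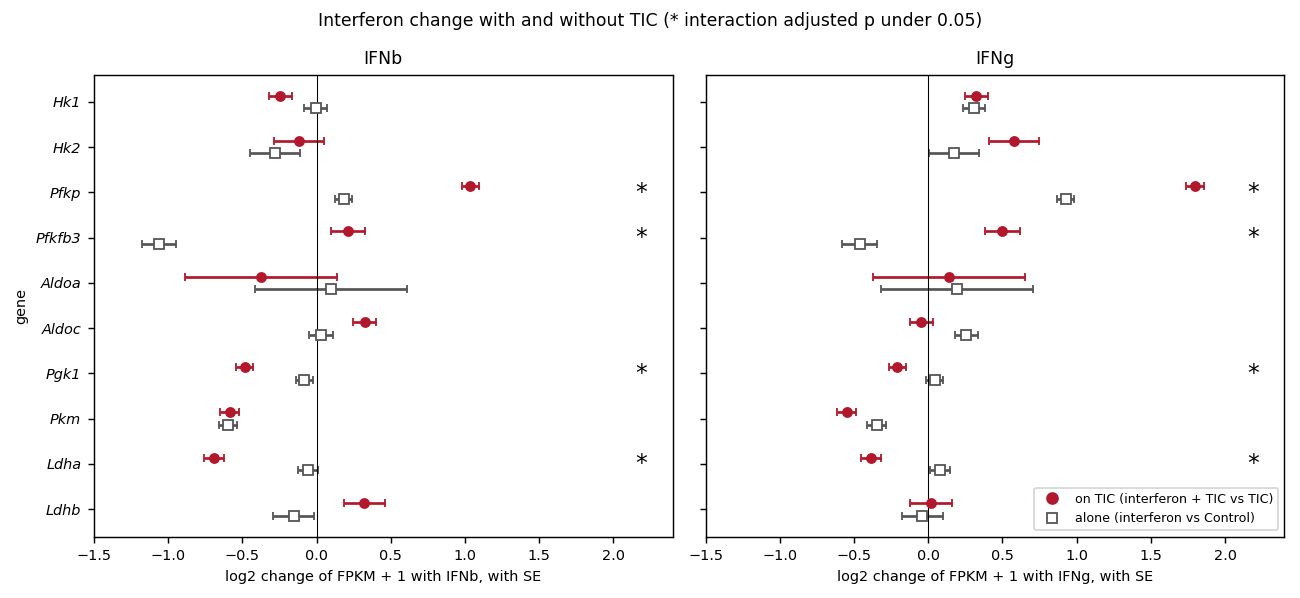
Change of each gene with interferon beta (left) and interferon gamma (right) on the log2(FPKM + 1) scale, on top of TIC (filled circles) and alone (open squares), with bars for the SE; a star marks an interaction with an adjusted p under 0.05. Pfkp and Pfkfb3 lie further right on TIC than alone, and Ldha and Pgk1 further left.

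On a background of TIC, 4 of the 10 genes were higher with interferon gamma, beside 7.42% of all genes, and 3 lower, beside 21.8%. Hk1 rose by 0.32 (adjusted p = 0.00379), Hk2 by 0.58 (adjusted p = 0.0161) and Pfkfb3 by 0.50 (adjusted p = 0.00343), beside Pfkp. Ldha fell by 0.39 (adjusted p = 0.00034), Pkm by 0.55 (adjusted p = 3.09e-06) and Pgk1 by 0.21 (adjusted p = 0.0106). The Hk2 call was lost without TIC replicate 1 (adjusted p = 0.0680), without IFNg + TIC replicate 1 (adjusted p = 0.0569) and with a pseudocount of 0.1 (adjusted p = 0.0767). The Pgk1 call was lost without TIC replicate 3 (adjusted p = 0.0508), without IFNg + TIC replicate 2 (adjusted p = 0.0532) and under median-ratio scaling (-0.09, adjusted p = 0.284). With interferon beta on TIC, 2 genes were higher (Pfkp and Aldoc), beside 9.86% of all genes, and 4 lower, beside 31.5%. Ldha fell by 0.69 (adjusted p = 3.93e-07), Pkm by 0.59 (adjusted p = 9.92e-07), Pgk1 by 0.48 (adjusted p = 3.40e-06) and Hk1 by 0.24 (adjusted p = 0.0164), a call lost without TIC replicate 2 (adjusted p = 0.0779) and without IFNb + TIC replicate 1 (adjusted p = 0.0744). Under median-ratio scaling, 4 genes were higher and 2 lower with interferon gamma, beside 1087 and 1223 of all 10282 genes tested. With interferon beta, 4 were higher and 3 lower, beside 1615 and 1692 of the 10282. The Hk1 value with interferon beta was then -0.08 (adjusted p = 0.470). Among all calls, the share of higher genes was 47.1% under that scaling and 25.4% without it for interferon gamma on TIC, and 48.8% and 23.8% for interferon beta on TIC.

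The interferons were also set against each other. In IFNb over IFNg, 0 genes were higher, beside 5.77% of all genes, and 5 were lower, beside 19.3%. Pfkp was at -0.74 and Pfkfb3 at -0.60. Median-ratio scaling left 2 calls, beside 2003 calls among all 10282 genes tested. The share of higher genes among all calls was 46.6% under that scaling and 23.0% without it. In IFNb + TIC over IFNg + TIC, 1 gene was higher, beside 9.72% of all genes, and 5 were lower, beside 12.7%. The share of higher genes among all calls there was 53.5% under median-ratio scaling and 43.4% without it. Hk1 fell by 0.57 (adjusted p = 2.83e-05), Hk2 by 0.70 (adjusted p = 0.00617), Pfkp by 0.76 (adjusted p = 3.93e-08) and Ldha by 0.30 (adjusted p = 0.00332), while Aldoc rose by 0.37 (adjusted p = 0.00218).

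Against control, 3 genes were higher with IFNb + TIC, beside 19.3% of all genes, and 4 lower, beside 42.8%. With IFNg + TIC, 5 were higher, beside 22.9% of all genes, and 3 lower, beside 40.4%. With IFNb, 1 was higher, beside 8.86% of all genes, and 2 lower, beside 29.1%. With IFNg, 3 were higher, beside 7.11% of all genes, and 2 lower, beside 7.17%. The Aldoc rise among them was 0.26 (adjusted p = 0.0374), and it was lost without control replicate 2 (adjusted p = 0.151) or replicate 3 (adjusted p = 0.0573), without IFNg replicate 1 (adjusted p = 0.163) or replicate 3 (adjusted p = 0.0509), and when only these groups were fitted (adjusted p = 0.114). Under median-ratio scaling the counts were 5 higher and 3 lower with IFNb + TIC, beside 3115 and 3010 of all 10282 genes. With IFNg + TIC they were 6 higher and 3 lower, beside 3251 and 3192 of the 10282. Among all calls against control, the share of higher genes under that scaling was 50.9% with IFNb + TIC, 50.5% with IFNg + TIC, 47.3% with IFNb and 60.6% with IFNg, and without it 31.1%, 36.2%, 23.3% and 49.8% in the same order. In IFNb + TIC over IFNb, 4 genes were higher, beside 18.6% of all genes, and 3 lower, beside 27.7%. In IFNg + TIC over IFNg, 5 were higher, beside 22.2% of all genes, and 3 lower, beside 36.6%. Under median-ratio scaling, the share of higher genes among all calls was 50.7% in IFNb + TIC over IFNb and 50.5% in IFNg + TIC over IFNg, and without it 40.2% and 37.7%. Pfkfb3 rose by 1.25 over IFNb and by 0.94 over IFNg, whereas the libraries with TIC alone lay within the control range.

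Transporters that feed the pathway and release its product moved with TIC as well. Slc2a1, the glucose transporter of astrocytes and the blood-brain barrier, was measured at 40.0, 46.8 and 39.0 FPKM in IFNb + TIC, 73.2, 68.5 and 67.2 FPKM in IFNg + TIC, 70.2, 73.1 and 71.6 FPKM in TIC, 17.6, 15.2 and 16.2 FPKM in IFNb, 14.3, 16.7 and 16.3 FPKM in IFNg and 18.6, 22.6 and 26.1 FPKM in control libraries. All libraries with TIC were above control, and all with interferon alone were below it. Slc2a1 rose with TIC by 1.64 (adjusted p = 4.25e-10), fell with IFNb by 0.42 (adjusted p = 0.00404) and with IFNg by 0.47 (adjusted p = 0.00429, and 0.0611 with only these groups fitted), and was lower in IFNb + TIC than in TIC, with a log2 change of -0.76 (adjusted p = 1.70e-05). Of the 7 Slc2a family genes tested, listed as glucose transporters, 4 rose and 3 fell with TIC, beside 25.3% and 31.2% of all genes. The 4 include Slc2a13 and Slc2a3, and whether each gene's product carries glucose was not tested. Slc2a3 was uneven in TIC libraries, at 4.51 ± 3.91 FPKM (SD, n = 3) with a minimum of 0 FPKM, and was at 0 FPKM in control libraries. Slc16a1, the monocarboxylate transporter MCT1 that carries lactate out of astrocytes, averaged 101 ± 9.95 FPKM in IFNb + TIC, 94.9 ± 9.62 FPKM in IFNg + TIC, 127 ± 11.7 FPKM in TIC, 56.5 ± 2.88 FPKM in IFNb, 78.1 ± 8.74 FPKM in IFNg and 80.4 ± 10.2 FPKM in control libraries (SD, n = 3 each). It rose with TIC by 0.66 (adjusted p = 5.26e-05) and fell with IFNb by 0.49 (adjusted p = 0.0017). Bsg, the chaperone of this transporter, was between 0 and 0.936 FPKM in 15 libraries and between 44.3 and 63.2 FPKM in 3 (IFNb + TIC replicate 1 and control replicates 1 and 2), a split within conditions, and no change is drawn from it.

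Many genes of the citric acid cycle and of glycogen handling fell with TIC. Of the 16 citric acid cycle genes tested, 0 rose and 13 fell with TIC, beside 25.3% higher and 31.2% lower among all genes, with a median change of -0.50 beside -0.04 over all genes. With IFNb alone, 10 of these 16 genes were lower, beside 29.1% of all genes. Under median-ratio scaling 4 were lower with IFNb, beside 1638 of all 10282 genes tested. Of the 11 glycogen genes tested, 0 rose and 6 fell with TIC, read against the same shares of all genes, among them the phosphorylase Pygm by 2.49 (adjusted p = 7.65e-12). The 14 genes for pyruvate entry also count kinases that inhibit it, so their counts give no direction of pyruvate use. Of the 14, 3 rose and 8 fell with TIC, also beside 25.3% and 31.2% of all genes. Under median-ratio scaling 5 fell with TIC, beside 2872 of all 10282 genes tested. Pdk2, a kinase that inhibits pyruvate dehydrogenase, fell by 1.67 (adjusted p = 1.34e-11) and Pc, pyruvate carboxylase, by 1.49 (adjusted p = 9.26e-10), while Pdp1, the phosphatase that reactivates pyruvate dehydrogenase, rose by 1.07 (adjusted p = 4.44e-05). Pdk3, another such kinase, averaged 32.5 ± 1.62 FPKM in IFNb and 14.9 ± 1.22 FPKM in control libraries (SD, n = 3 each) and rose with IFNb by 1.08 (adjusted p = 2.50e-07).

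**Figure D5:**
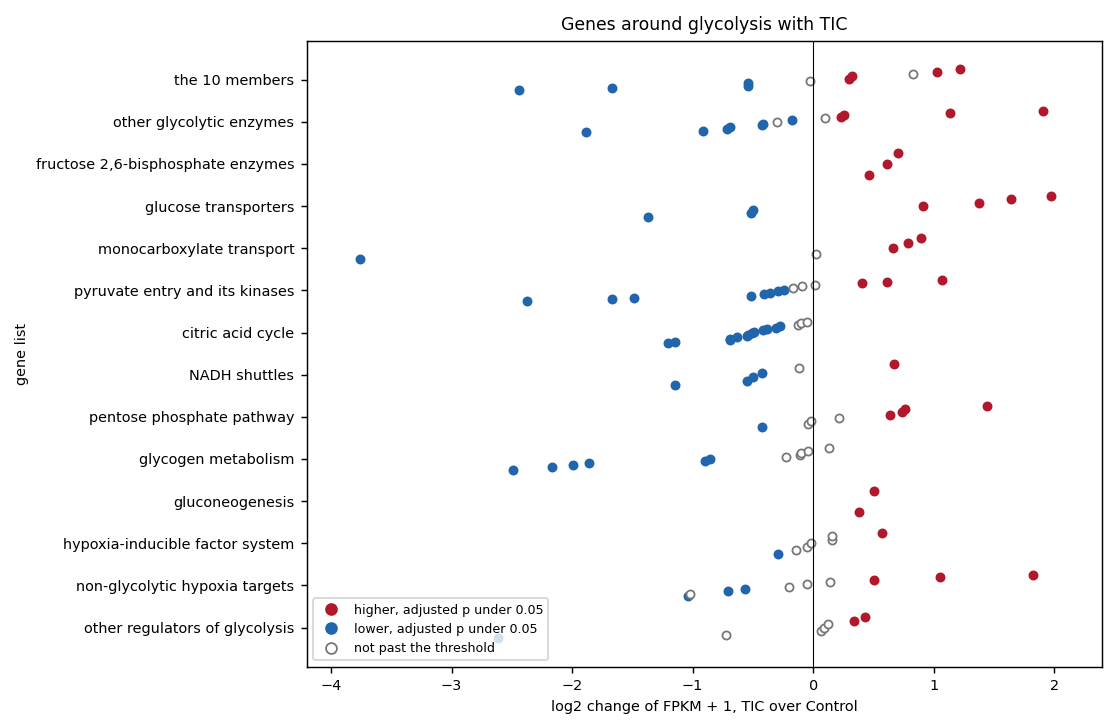
Change with TIC over control on the log2(FPKM + 1) scale for the 10 genes and for each gene of 13 lists around them; each point is 1 gene, red called higher, blue called lower, open grey not called. The 16 citric acid cycle genes include 13 called lower and 0 called higher, and glycogen metabolism 6 lower and 0 higher. The monocarboxylate row includes Bsg, called lower, whose libraries split within conditions, so no change is drawn from it. The glucose transporter row includes Slc2a3, whose TIC libraries were uneven, with a minimum of 0 FPKM.

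Among the 13 other glycolytic enzymes tested, 4 rose and 7 fell with TIC, with a median change of -0.30, and all counts with TIC in the lists that follow stand beside 25.3% of all genes higher and 31.2% lower. Eno2, the enolase named for neurons, rose by 1.13 (adjusted p = 2.67e-09); the neuronal marker sum given above was also highest in TIC and lowest in IFNb + TIC, and its part in the Eno2 values was not tested. Of the 8 pentose phosphate pathway genes tested, 4 rose and 1 fell with TIC; Pgd, which makes NADPH, averaged 71.4 ± 8.40 FPKM in IFNb + TIC, 143 ± 8.08 FPKM in IFNg + TIC, 152 ± 17.2 FPKM in TIC and 55.4 ± 8.47 FPKM in control libraries (SD, n = 3 each). Eno2, Pgd, Pfkl and Slc2a1, chosen after their values were seen, were all lower in IFNb + TIC than in TIC, as Ldha was. The log2 changes were -0.64 for Eno2, -1.08 for Pgd, -1.06 for Pfkl and -0.76 for Slc2a1. In that comparison 0 of the 13 other glycolytic enzymes were called higher and 9 lower, beside 9.86% and 31.5% of all genes. Under median-ratio scaling 1692 of all 10282 genes tested were lower there. Mean Pfkm went the other way, from 21.5 to 24.1 FPKM. Of 6 NADH shuttle genes tested 1 rose and 4 fell with TIC, and of 2 gluconeogenesis genes 2 rose with TIC. Of the 7 genes of the hypoxia-inducible factor system tested, 1 rose and 1 fell with TIC. Hif1a, its oxygen-regulated subunit, averaged 139.7 ± 10.4 FPKM in IFNb + TIC, 165 ± 11.7 FPKM in IFNg + TIC, 149.7 ± 8.93 FPKM in TIC and 100.3 ± 3.38 FPKM in control libraries (SD, n = 3 each). With interferon alone, Hif1a was called lower with IFNb, a call lost under median-ratio scaling, and was not called with IFNg. Of the 10 hypoxia targets outside glycolysis, 3 rose and 3 fell with TIC, with P4ha2, a collagen prolyl hydroxylase, at a log2 change of 1.83 (adjusted p = 1.91e-07) and Mxi1, a MYC antagonist, at -1.04 (adjusted p = 1.29e-07). Ppargc1a, a coactivator of mitochondrial genes, averaged 1.88 FPKM in IFNb + TIC, 1.37 FPKM in IFNg + TIC, 1.76 FPKM in TIC and 16.0 FPKM in control libraries. With interferon alone, Ppargc1a was also called lower with IFNb and was not called with IFNg.

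The patterns of the 10 genes were also set beside those of all other genes. Likeness was the root mean square difference of log2(FPKM + 1), each gene centred on its own mean, over the 18 libraries, among genes averaging at least 5 FPKM. The genes most like Ldha were Gss at 0.0939 and Ptges2 at 0.104. Those most like Aldoc were Zhx3 at 0.162 and Chst7 at 0.187, and those most like Pfkp were Gpr19 at 0.203 and Nub1 at 0.240. Pkm was followed most closely by Ifi30 at 0.0961 and Pfkfb3 by Cebpb at 0.205. The genes nearest to Aldoa were Mllt11 at 0.529 and Gemin6 at 0.553. The measure is not scaled to a gene's own spread, so closeness cannot be compared between the 10 genes. The SD of the centred values over the 18 libraries was 0.724 for Aldoa, 0.405 for Ldha and 1.27 for Aldoc.

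The authors' deposited table of comparisons with control called 8 of the 10 genes with IFNb + TIC, 10 with IFNg + TIC, 8 with TIC, 4 with IFNb and 5 with IFNg. For TIC and for IFNg, all the calls of both sources were shared, with the same direction. The adjusted p of Ldhb with TIC was 0.0139 in the authors' deposited table and 1.75e-08 in limma. Only the authors' deposited table called Aldoa with IFNg + TIC (1.24, adjusted p = 0.035) and Aldoc with IFNb (0.24, adjusted p = 0.0227). In the authors' deposited table Pgk1 had a log2 change of 0.13 with IFNb + TIC (adjusted p = 0.143), the opposite sign to the limma value, and 0.35 with IFNg + TIC (adjusted p = 2.13e-08). With IFNb + TIC the authors' deposited table also called Hk1 at 0.31 (adjusted p = 0.00463) and Pfkfb3 at 0.52 (adjusted p = 0.000166), which limma gave as 0.06 and 0.19 (adjusted p = 0.535 and 0.167). Median-ratio scaling moved these limma values to 0.28 (adjusted p = 0.00291) and 0.41 (adjusted p = 0.00446). For Pgk1 with IFNg + TIC, limma gave 0.12 (adjusted p = 0.0796), and called it in 1 of 12 alternatives (adjusted p = 0.000116).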

How the data were processed

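RNA from immunopanned rat astrocytes was sequenced as 18 libraries in 6 conditions of 3, made with a SMART-Seq HT and Nextera XT protocol, per the labels' protocols. HISAT2, StringTie and DESeq2 are named in the submitters' processing notes, which also name the mouse build mm10, whereas the gene identifiers in the deposited table are those of rat. The sources used here give no versions. The deposited table gives FPKM per gene and library, a unit scaled to transcript length and library total, per the file headers, and the authors' log2 changes and adjusted p-values against control. Every gene in it averages at least 0.501 FPKM, so weaker genes were not analysed here. The table has 10434 rows, of which 3 that named no gene were left out; they held up to 0.012% of the FPKM in a library.

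Differences were tested with limma 3.58.1 (trend) in R 4.3.3 on log2(FPKM + 1), for the 10296 genes with at least 1 FPKM in at least 3 libraries, with 1 mean per condition and Benjamini-Hochberg adjustment over all genes for each of 13 comparisons. The procedure was tested on simulated data, which did not vary the scaling of libraries and so say nothing about it. Depth is not recoverable from FPKM, so no counting intervals are given. Shares were compared with exact permutation tests. Alternatives were a pseudocount of 0.1, no filter, median-ratio scaling, rescaling to a common total, fits on only the groups compared, a replicate block and leaving out each library. Replicate numbers did not pair the libraries: residuals of same-numbered libraries correlated from -0.17 to 0.15. Median-ratio scaling shifted the median change of all genes by more than 0.1, with IFNb + TIC over control at 0.01 against -0.20, IFNg + TIC over control at 0.01 against -0.15 and IFNb over control at -0.03 against -0.16; it did so too for each combination over TIC and for IFNg + TIC over IFNg. The genes named are the 10 members, up to 3 called genes of largest change per list and comparison with control, and the 2 genes of most like pattern. The 4 list genes set beside Ldha in IFNb + TIC over TIC, and the promoters printed, were chosen after their values were seen. The members and lists were chosen with earlier results of these data known. Promoter sequences are from RefSeq, GRCr8, and matched 9 of the 10 genes.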

Additional observations from a re-analysis of the deposited data

Results flagged for a closer look

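For 4 genes the change with interferon differed between astrocytes with and without TIC, by limma's test of the interaction with Benjamini-Hochberg adjustment over all genes. Pfkp was 0.85 above the sum of the single changes with interferon beta (log2, SE 0.08, adjusted p = 2.72e-06) and 0.87 above it with interferon gamma (adjusted p = 2.44e-06), and its levels in the 6 conditions did not overlap. Pfkfb3 was 1.27 above the sum with interferon beta (SE 0.16, adjusted p = 5.18e-05) and 0.96 above it with interferon gamma (adjusted p = 0.000718). Ldha differed from the sum by -0.63 with interferon beta (SE 0.10, adjusted p = 0.00025) and by -0.46 with interferon gamma (adjusted p = 0.00352). Pgk1 differed by -0.40 with interferon beta (SE 0.08, adjusted p = 0.00267) and by -0.25 with interferon gamma (adjusted p = 0.0472). The interferon groups share the control and TIC libraries, so the paired values are not independent.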

How the results depend on the processing

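Across 1679 values of the 10 genes under alternatives, 1604 kept their side of the threshold, 51 lost the call, 23 gained one and 1 reversed. Direction had to stay the same only for called results, so an uncalled value could change sign and still count as kept. Aldoa in IFNg over control, for example, was never called and ranged from -0.19 to 0.68. By this count, 103 of 130 gene-by-comparison results held throughout. The reversal was Pgk1 in IFNb + TIC over control, at 0.0715 on the log2 scale (adjusted p = 0.266) under median-ratio scaling. The count in IFNb over IFNg was 2 under that scaling, beside 2003 of all 10282 genes, against 5, beside 2581 of 10296. The count in IFNg over control, 5 with all groups, was 2 when only those groups were fitted, and 3 to 4 when a library was left out (3 without control replicate 3). The cause was not tested. The replicate block, for numbers that do not pair the libraries, added Pfkfb3 in IFNb + TIC over IFNg + TIC (adjusted p = 0.0425, 7 calls against 6), removed Pgk1 in the IFNg by TIC interaction (adjusted p = 0.0592, 3 calls against 4) and left the other counts at their values. The Pgk1 interaction with IFNg kept its call in 4 of 18 alternatives. The 3 libraries per condition and the unknown depth limit the precision of weak genes such as Hk2.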

Other observations

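Arrdc4, an arrestin-family protein that restrains glucose uptake, averaged 7.63 FPKM in IFNb + TIC, 17.2 FPKM in IFNg + TIC, 3.34 FPKM in TIC, 3.34 FPKM in IFNb, 6.78 FPKM in IFNg and 2.22 FPKM in control libraries. Limma called it higher than control with IFNg + TIC, at a log2 change of 2.50 (adjusted p = 3.94e-10), with IFNb + TIC, at 1.42 (adjusted p = 7.51e-07), with TIC, at 0.43 (adjusted p = 0.032), and with IFNg, at 1.25 (adjusted p = 2.48e-05). With IFNb it was 0.41 (adjusted p = 0.0526). Pdp1 averaged 51.4 ± 12.5 FPKM in IFNb + TIC, 82.1 ± 16.9 FPKM in IFNg + TIC, 32.9 ± 2.24 FPKM in TIC and 15.2 ± 0.910 FPKM in control libraries (SD, n = 3 each).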
